A study of Mus musculus with 20 samples.

Results

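The expression of 30 genes that mark macrophages and lymphocytes was read in RNA sequencing (RNAseq) of whole mouse islets, out of 28632 genes in the count table. They are 26 genes of macrophages and other myeloid cells and 4 genes of lymphocytes, and all 30 were found in the table by their Ensembl identifiers. The islets came from 12-week-old C57BL/6N mice of both sexes, in 4 groups. β-Mfn1KO mice (4 libraries) carried Mfn1 loxP/loxP with Ins1-Cre, β-Mfn2KO mice (5 libraries) carried Mfn2 loxP/loxP with Ins1-Cre, and β-Mfn1/2DKO mice (5 libraries) carried both floxed genes with Ins1-Cre. The labels call the Ctrl mice (6 libraries) wild type, whereas the methods describe mice with Ins1-Cre alone or with floxed alleles alone, combined. Ins1-Cre recombines in β-cells, so the macrophages and lymphocytes in these islets were not themselves targeted. Islets were released with collagenase, separated on a histopaque gradient, picked by hand and cultured for 24 h before RNA was extracted.

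Healthy mouse islets hold a small resident population of macrophages that lies along the capillaries among the β-cells. These cells carry the growth factor receptor Csf1r, the surface proteins F4/80 (Adgre1) and CD11c (Itgax) and the fractalkine receptor Cx3cr1. They also carry lysozyme and the major histocompatibility complex (MHC) class II proteins, which present peptides to helper T cells. Stromal and peritoneal macrophages and newly arrived monocytes carry more of CD11b (Itgam), the mannose receptor (Mrc1) or the chemokine receptor Ccr2. T cells are known by the CD3 chains (Cd3e, Cd3g) and B cells by Cd79a, a chain of the B cell receptor complex, and by CD20 (Ms4a1). In RNA from whole islets, fewer cells of a type and less RNA per cell cannot be told apart.

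The 3 genes of the classical MHC class II chains lie together on mouse chromosome 17, and 2 of them had a promoter in the RefSeq sequences of GRCm38.p6 used here. The 150 bases before the start of each are shown because the class II genes were high in the same 3 β-Mfn1/2DKO libraries, as described below. Capitals mark the letters CTNGCAACT (X box) and CTGATTGG (Y box), which are known from promoters of this gene family. The H2-Aa window is chr17:34287824-34287973 on the minus strand and H2-Eb1 chr17:34305717-34305866 on the plus strand.
H2-Aa: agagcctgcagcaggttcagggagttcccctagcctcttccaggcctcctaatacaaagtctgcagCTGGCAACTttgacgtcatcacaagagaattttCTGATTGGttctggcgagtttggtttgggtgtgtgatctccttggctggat
H2-Eb1: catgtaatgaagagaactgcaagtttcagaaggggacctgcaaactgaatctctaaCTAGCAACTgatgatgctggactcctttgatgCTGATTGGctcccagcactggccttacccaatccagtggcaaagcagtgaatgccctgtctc
The Y box began 51 bases before the start of H2-Aa and 62 before that of H2-Eb1, and the X box 84 and 94 bases before it. In 300-base promoters (250 bases before to 50 after the start) searched on both strands, the Y box letters occurred in 4.1% of 32851 promoters, the X box letters in 0.898% and both together in 16 promoters, or 0.0487%. Among 17 macrophage genes with a promoter in the table, H2-Aa and H2-Eb1 held both.
Itgam, a gene that set 2 libraries apart from the rest, is shown with the letters GAGGAAG, of the kind bound by the myeloid transcription factor PU.1 (gene Spi1), in capitals. The window is chr7:128062490-128062639 on the plus strand, and the letters begin 84 bases before the start.
Itgam: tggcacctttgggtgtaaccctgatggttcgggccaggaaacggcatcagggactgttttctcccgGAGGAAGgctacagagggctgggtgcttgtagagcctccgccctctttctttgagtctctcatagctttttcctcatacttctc
These letters are common, at 13.6% of all promoters, and 5 of the 17 macrophage genes (Fcgr3, Mrc1, Laptm5, C1qc and Itgam) held them. Lyz2, also high in the libraries that Itgam set apart, held none of the motifs in the 150 bases before its start. None of the 3 lymphocyte genes with a promoter held any of the 3 motifs. The letters were chosen with these promoters in view, and a match is a description of the sequence only.

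Depth went with genotype. The total count of a library was 12400687 to 20329064 in Ctrl, 15745680 to 16685381 in β-Mfn1KO, 15110046 to 59533407 in β-Mfn2KO and 65533388 to 122947313 in β-Mfn1/2DKO, so depth and the double knockout cannot be told apart. Values below are, unless another unit is given, normalized counts, that is counts scaled by TMM (edgeR's trimmed mean of M-values) to a common library size. The targeted genes followed the labels, with normalized counts of 621 to 1062 for Mfn1 in the 2 groups that lost it against 1518 to 1807 elsewhere, and of 1474 to 2131 for Mfn2 against 3089 to 4607. With low counts filtered by group, 25 of the 26 macrophage genes but 1 of the 4 lymphocyte genes (Cd79a) were kept. Genes were called from edgeR's quasi-likelihood test of all genes in all libraries, where the adjusted p was under 0.05 and the values differed by more than 1.5-fold. The labels do not say that the libraries of a group came from separate mice. The paper's legends give the same numbers as n for islets of these mice, without saying that each was a single animal. A p here measures the spread between these libraries.

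Genes of resident islet macrophages, such as Csf1r, Adgre1, Cx3cr1 and the C1q genes, were detected in all 20 libraries. Per kilobase of exon, the median of the Ctrl libraries was highest for C1qa (1414 normalized counts per kb), then Cd74 (1093), Lyz2 (688) and C1qb (509.8). The order went on with H2-Ab1 (383), H2-Eb1 (376), Cd68 (269) and Tyrobp (239). Cx3cr1 stood at 39.7 per kb, Itgax at 33.0 and Adgre1 at 32.2, close to each other. The lowest macrophage genes were Itgam (4.92 per kb), Mrc1 (3.20) and Ccr2 (0.665). Of the lymphocyte genes Cd79a stood at 75.2 per kb and Ms4a1 at 0.171, and the Ctrl medians of Cd3e and Cd3g were 0. Thus in most libraries the CD11c gene stood above the CD11b gene and the T cell genes were near the limit of detection.

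In these genes 3 libraries stood apart and are described before the genotypes are compared. They are Ctrl replicate 6 and β-Mfn2KO replicate 5, with many macrophage genes high, and β-Mfn1/2DKO replicate 4, with pan-leukocyte and lymphocyte genes high. All 3 came from males. The heat map gives each gene in each library.

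**Figure D1:**
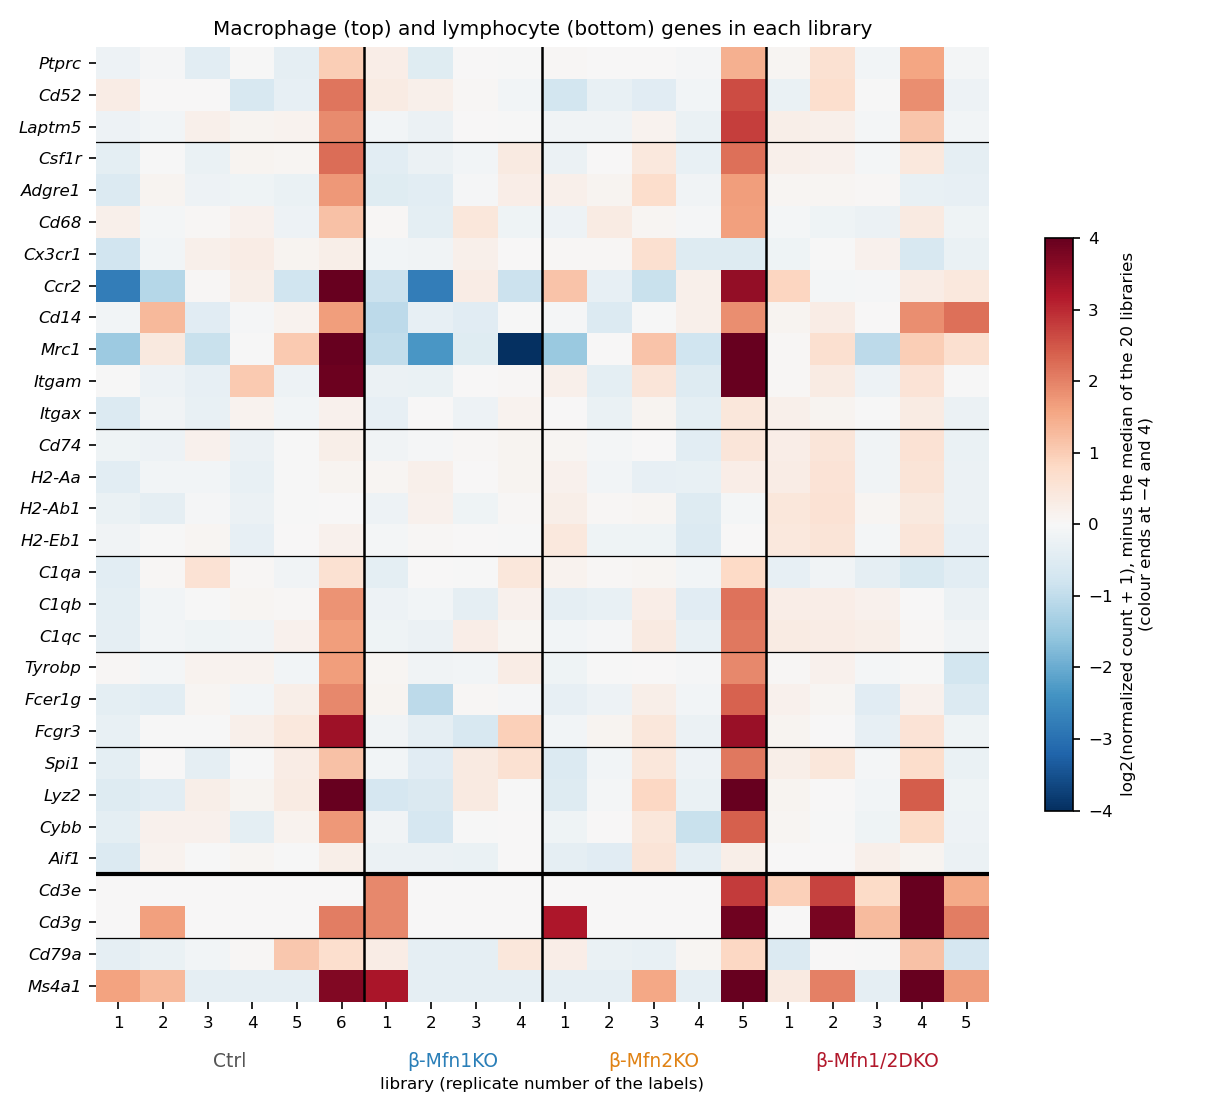
Each row is a gene and each column a library, grouped by genotype and numbered as in the labels; the colour is log2(normalized count + 1) minus the median of the 20 libraries, with the colour scale ending at -4 and 4. Ctrl 6 and β-Mfn2KO 5 are red in most macrophage rows, darkest for Lyz2, Mrc1, Itgam, Fcgr3 and Ccr2, but pale in the MHC class II rows. β-Mfn1/2DKO 4 is red in the pan-leukocyte, Lyz2 and lymphocyte rows.

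Lyz2, the lysozyme of macrophages and neutrophils, was at 18202 in Ctrl 6 and at 564 to 1011 in the other 5 Ctrl libraries. It was at 26334 in β-Mfn2KO 5 and at 561 to 1430 in the other 4 of that genotype. These values are 21.1 and 37.0 times the median of the other libraries of the same genotype. Mrc1 was high in the same libraries, at 464 in Ctrl 6 against 5.81 to 37.9 in the rest of Ctrl, and at 514 in β-Mfn2KO 5 against 5.64 to 40.4. Itgam was at 417 against 21.3 to 56.1 and at 555 against 18.2 to 37.7. Each of these libraries therefore lay far outside the range of its own group, and close to the other one.

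Ccr2, the receptor that guides monocytes into tissue, was 52.3 times the median of the other Ctrl libraries in Ctrl 6 (152.5) and 13.8 times that of its group in β-Mfn2KO 5 (77.9). Fcgr3, an activating receptor for antibody-coated targets, stood 10.9-fold and 11-fold above it (464 and 475.5). The pan-leukocyte genes followed with smaller ratios, at 4.47 and 8.13 for Cd52, 3.47 and 7.57 for Laptm5 and 2.30 and 2.68 for Ptprc (CD45). The macrophage growth factor receptor Csf1r stood 4.75-fold and 4.97-fold above it and Adgre1 3.86-fold and 2.90-fold. Of the signalling adaptors that pass on activating receptor signals, Fcer1g had ratios of 4.10 and 5.73 and Tyrobp of 3.09 and 3.84. Cybb, the catalytic subunit of the phagocyte oxidase, had ratios of 3.04 and 5.59 and the endotoxin co-receptor Cd14 of 3.30 and 3.72. For Spi1 the ratios were 2.28 and 4.85, and for the lysosomal Cd68 2.21 and 3.07. Genes of all these roles were thus high in both libraries.

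Other macrophage genes differed little in these libraries from the rest of their groups. The MHC class II genes had ratios of 1.17 and 1.37 (H2-Aa), 1.19 and 0.908 (H2-Ab1), 1.14 and 1.12 (H2-Eb1) and 1.33 and 1.42 (Cd74, the invariant chain that carries class II proteins). Itgax had ratios of 1.25 and 1.49, Aif1 1.19 and 1.5, and Cx3cr1 1.09 and 0.669. The C1q genes, which encode the 3 chains of the complement recognition protein, were split. C1qb (3.57 and 5.73) and C1qc (3.53 and 4.58) were high, whereas C1qa had ratios of 1.46 and 1.66. Ctrl 6 exceeded every other Ctrl library in 25 of 26 macrophage genes. Its ratio to their median was over 3 in 15 of the 26 and under 1.5 in 8, Cx3cr1 among these. β-Mfn2KO 5 exceeded the rest of its group in 22 of 26, with a ratio to their median over 3 in 16 of the 26 and under 1.5 in 6.

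**Figure D2:**
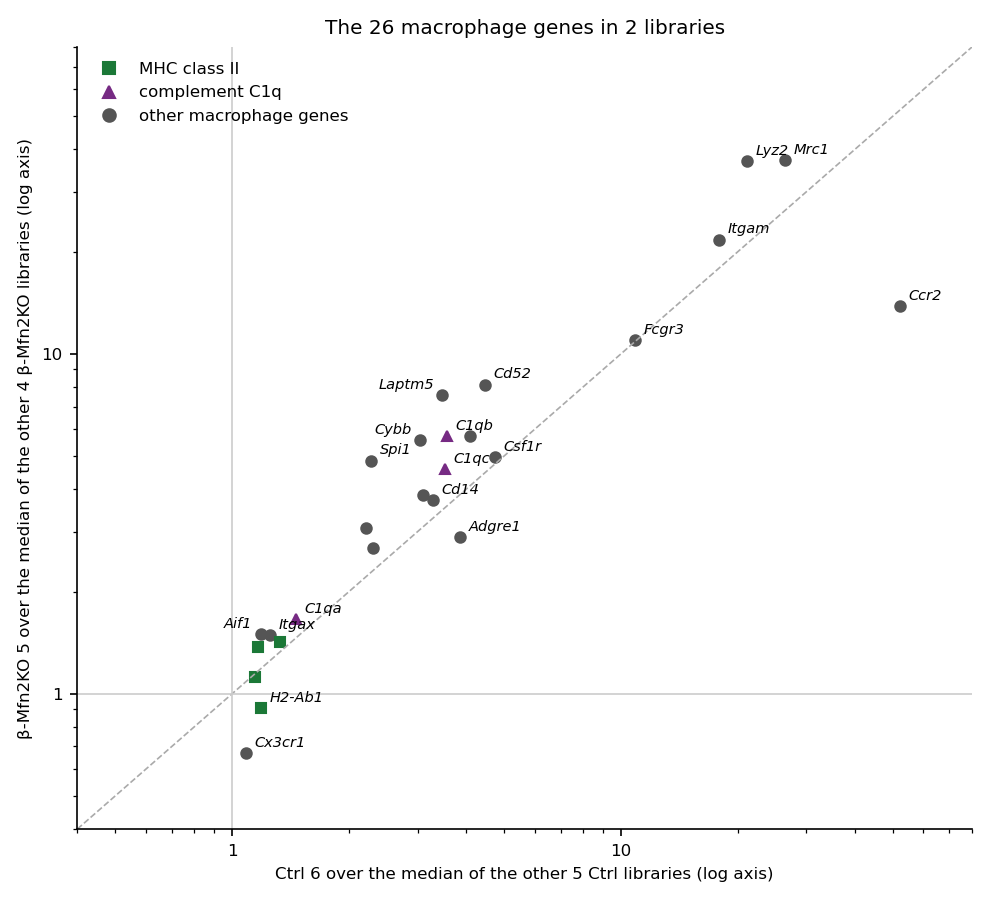
Each point is a macrophage gene; the x axis is its value in Ctrl 6 over the median of the other 5 Ctrl libraries and the y axis its value in β-Mfn2KO 5 over the median of the other 4 β-Mfn2KO libraries, both on log axes with the diagonal dashed. Lyz2, Mrc1, Itgam, Fcgr3 and Ccr2 lie above 10 on both axes, and the MHC class II genes (squares), Cx3cr1, Itgax and Aif1 lie near 1.

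Both libraries lay above all other 18 in 17 of the 26 macrophage genes, beside 399 of the 15267 genes that passed the filter (2.61%). The ratio of the CD11c to the CD11b gene, read within a library and so free of scaling, was 0.470 in Ctrl 6 and 0.430 in β-Mfn2KO 5. Its medians were 5.56 in Ctrl, 6.51 in β-Mfn1KO, 5.64 in β-Mfn2KO and 5.60 in β-Mfn1/2DKO. The ratio of Lyz2 to C1qb was 9.43 and 10.5 in these libraries against group medians of 1.18 to 1.69, and 7.56 in β-Mfn1/2DKO 4.

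Other genes moved with these libraries. Apoe was at 24186 and 36896, against 4171 to 7570 in the other 18 libraries. Chosen after their values were seen, Gpnmb was at 2833 and 6308, Chil3 at 74.7 and 72.6 and Clec10a at 62.3 and 61.4, whereas Chil3 and Clec10a were at 0 in every other Ctrl and β-Mfn2KO library. The neutrophil and monocyte genes S100a8 (49.8 and 50.9) and S100a9 (65.4 and 91.8) were high too. The summed level of 8 stellate cell and pericyte genes, led by Col1a1, was 308 and 334 CPM (TMM-scaled counts as a rate of the library total) against at most 114 in any other library, with Col1a2 at 4579 and 4473. The part of these cells in the macrophage values was not tested. Acinar genes did not move with them, at 409.6 and 596 CPM against 280 to 1770 in Ctrl and up to 6697 in β-Mfn2KO.

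By the rule fixed for likeness, the 10 genes whose profile over 20 libraries was most like that of the macrophage genes included Ctss, Lcp1, Lgmn, Apoe, Col1a2, Vim, Sparc, Lgals3 and Rab3il1. Likeness was Pearson's r between log2 values with genotype means taken out, among 12252 genes, and ran from 0.977 for Ctss to 0.942 for Rab3il1. Without Ctrl 6 and β-Mfn2KO 5 the same values were 0.899 and 0.688 over 18 libraries. Col1a2 and Sparc are genes of stromal cells, Ctss, Lcp1, Lgmn, Apoe and Lgals3 are known from macrophages, and all of these share the 2 high libraries. Among the members the median r of Lyz2 with the other macrophage genes was 0.894 over 20 libraries and 0.448 over 18. Cx3cr1 stood at -0.02 and 0.24, while H2-Ab1 and H2-Eb1 kept r = 0.853 and 0.856 with each other.

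In β-Mfn1/2DKO 4 the picture was different. Ptprc was at 402 against 125 to 206 in the other 4 libraries of the genotype, Cd52 at 124 against 27.4 to 53.9, Laptm5 at 506 against 218 to 272 and Lyz2 at 4250 against 710 to 868. Itgam (39.2), Mrc1 (35.7) and Csf1r (349) were at most 1.5 times the highest of the other 4. Macrophage genes over 3-fold above the median of the others numbered 4 of 26, and 17 were under 1.5-fold. This library also held 15880 CPM of 10 acinar genes, and β-Mfn1/2DKO 5 held 40571, against 431 to 711 in the other 3.

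**Figure D3:**
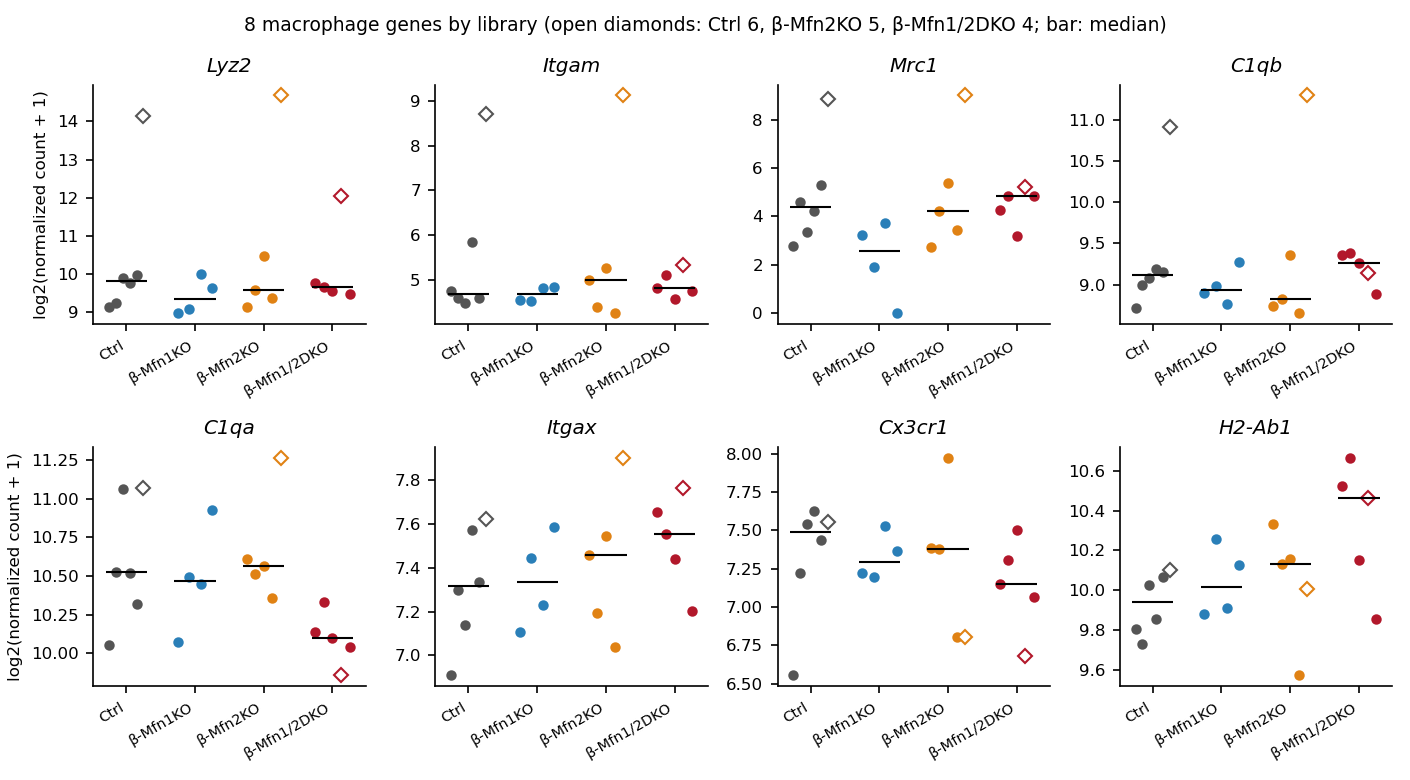
Each point is a library, on the log2(normalized count + 1) scale, with the median of each genotype as a bar and the 3 libraries that stand apart as open diamonds. For Lyz2, Itgam, Mrc1 and C1qb the open diamonds of Ctrl and β-Mfn2KO lie far above their groups, for Itgax, Cx3cr1 and H2-Ab1 they lie within or near them, and for C1qa the β-Mfn1/2DKO points lie low.

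The first comparison asked whether islet macrophage genes changed with loss of both mitofusins in β-cells. In β-Mfn1/2DKO against Ctrl islets none of the 26 macrophage genes was called, with edgeR or with DESeq2, beside 5.21% of all genes in edgeR. Under an unadjusted p of 0.05 there were 3 of 26 in both tools, beside 27.8% of all genes in edgeR. In DESeq2 the share was 26.8% of the genes with a p. DESeq2 gave no p in any comparison of genotypes for 9 of the 26. These were Cd52, Laptm5, Ccr2, Mrc1, Itgam, C1qb, Fcer1g, Fcgr3 and Lyz2, so they could not count there. By the adjusted p alone edgeR found 2 (16.5% of all genes), a rise of H2-Ab1 and a fall of C1qa. The median log2 fold change of the 26 was -0.27, beside 0.06 for all genes, and 10 of 26 were positive. No macrophage gene had groups that did not overlap, beside 10.6% of all genes.

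H2-Ab1, the β chain of the class II protein I-A, was at 850 to 1099 in Ctrl with a median of 984. It was at 1471, 1622, 1138, 1409 and 925.8 in β-Mfn1/2DKO. Thus 4 of the 5 double knockout libraries exceeded every Ctrl library and 1 did not. On the log2 scale the difference was 0.42 (SE 0.13) with an adjusted p of 0.0267 in edgeR, below the fold threshold. H2-Aa, the α chain of the same protein, was at 506 to 732 in Ctrl (median 627) and at 835, 986.5, 613, 958 and 574, with libraries 3 and 5 within the Ctrl range. The difference was 0.36 on the log2 scale (SE 0.14, edgeR adjusted p = 0.0779).

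H2-Eb1, the β chain of I-E, was at 582 to 828 in Ctrl (median 732), against 988, 1062, 703.5, 1024 and 590.6 in β-Mfn1/2DKO, a difference of 0.28 (SE 0.15, edgeR adjusted p = 0.221). Cd74 was at 1666 to 2307 (median 1836) and at 2351, 2725, 1780.2, 2936 and 1629, a difference of 0.25 (SE 0.15, edgeR adjusted p = 0.288). For all 4 class II genes libraries 1, 2 and 4 exceeded every Ctrl library and library 5 did not. Summed over the 4 genes, β-Mfn1/2DKO libraries held 127 ± 29.6 CPM (SD, n = 5) and Ctrl libraries 102 ± 12.4 (SD, n = 6). The sums of the single knockouts were 108 ± 6.11 for β-Mfn1KO (SD, n = 4) and 107 ± 19.1 for β-Mfn2KO (SD, n = 5). Without the 3 libraries that stand apart the log2 fold change of H2-Ab1 was 0.45 (edgeR adjusted p = 0.036). With single libraries left out it was 0.36 to 0.52, with adjusted p from 0.00348 to 0.0641. The adjusted p was over 0.05 without Ctrl 1, Ctrl 2, Ctrl 4 or β-Mfn1/2DKO 2.

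C1qa was at 1061 to 2151 in Ctrl with a median of 1471. It was at 1124, 1288, 1095, 927 and 1054 in β-Mfn1/2DKO. All double knockout libraries lay below the Ctrl median, and 3 lay within the Ctrl range. The difference was -0.54 on the log2 scale (SE 0.18, edgeR adjusted p = 0.0404), and without the 3 libraries that stand apart it was -0.36 (adjusted p = 0.129). Leaving out single libraries gave -0.63 to -0.43 with adjusted p from 0.0155 to 0.121, over 0.05 without Ctrl 3, 4 or 6, β-Mfn2KO 3 or β-Mfn1/2DKO 1, 3, 4 or 5. The fold also passed 1.5, and the gene was called, without Ctrl 1 or without Ctrl 5.

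C1qb and C1qc did not follow C1qa. C1qb was at 419 to 1930 in Ctrl (median 555), against 658, 669, 615, 562 and 472 in β-Mfn1/2DKO, and C1qc at 244 to 1002 (median 288) and at 389, 382, 370.1, 323 and 283.5. Their log2 fold changes of -0.34 and -0.22 became 0.19 and 0.26 without Ctrl 6 and β-Mfn2KO 5. Read within a library, the ratio of C1qa to C1qb counts was 1.71, 1.93, 1.78, 1.65 and 2.23 in β-Mfn1/2DKO. It was 2.24 to 3.94 in the 13 libraries of the other genotypes without Ctrl 6 (1.11) and β-Mfn2KO 5 (0.978). The 3 genes lie next to each other on chromosome 4 of GRCm38 (C1qb at 136880129 to 136886187, C1qc at 136889804 to 136893065 and C1qa at 136895917 to 136898803, minus strand), and the ratio was looked at after these values were seen.

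The largest negative fold changes were those of the genes that were high in Ctrl 6. Mrc1 had -1.96 (SE 1.02), Ccr2 -1.84 (SE 0.93), Itgam -1.64 (SE 0.84), Fcgr3 -1.34 (SE 0.70) and Lyz2 -1.32 (SE 1.01), with edgeR adjusted p from 0.201 to 0.455. Without Ctrl 6 and β-Mfn2KO 5 they were 0.31, 1.13, 0.02, -0.01 and 0.89. The median of the 26 genes then became 0.27 from -0.27. A single gene was then called, Ptprc at 0.77 (SE 0.26, edgeR adjusted p = 0.044), beside 6.14% of all genes. Leaving out β-Mfn1/2DKO 4 as well gave a median of 0.17, a Ptprc difference of 0.38 and no call among the 26 in edgeR, with 5 at an unadjusted p under 0.05 (26.5% of all genes).

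**Figure D4:**
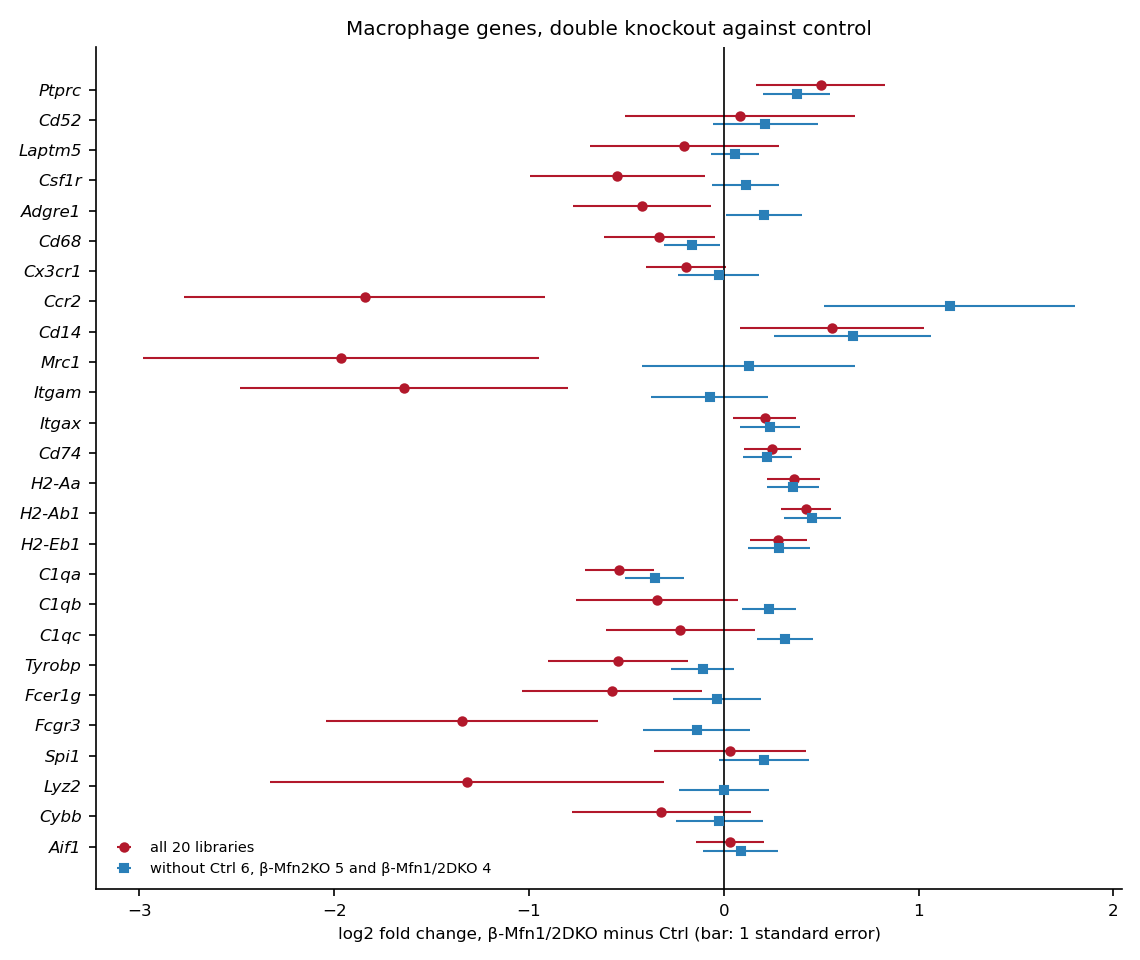
Points are log2 fold changes of β-Mfn1/2DKO minus Ctrl for the 26 macrophage genes with 1 standard error, from all 20 libraries (circles) and from the 17 without Ctrl 6, β-Mfn2KO 5 and β-Mfn1/2DKO 4 (squares). The wide bars of Mrc1, Ccr2, Itgam, Fcgr3 and Lyz2 move from the low end to near or above 0, and the MHC class II genes stay between 0.22 and 0.45.

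Among the genes that did not pass the test were Cx3cr1, Itgax and Aif1. Cx3cr1 was at 93.0 to 196 in Ctrl (median 179), against 141, 157, 181, 102 and 133 in β-Mfn1/2DKO, with a log2 fold change of -0.19 (SE 0.21). Itgax was at 119 to 196 (median 158) and at 201, 187, 173, 217 and 146, with 0.21 (SE 0.16). Aif1, a calcium-binding protein of macrophages, was at 78.5 to 137 (median 119) and at 118, 116, 133, 126 and 99.1, with 0.03 (SE 0.18). The groups overlapped for all 3 genes, and the edgeR adjusted p was 0.455 to 0.934.

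The loss of Mfn1 alone was compared next. No macrophage gene was called in β-Mfn1KO against Ctrl by edgeR or DESeq2 (0.0244% of all genes in edgeR). At an unadjusted p under 0.05 there were 2 in edgeR, Ccr2 and Mrc1 (7.44% of all genes). There was 1 in DESeq2 (6.41% of the genes with a p), which gave no p for Ccr2 or Mrc1. Mrc1 was at 8.37, 2.75, 12.4 and 0 in β-Mfn1KO, against a Ctrl median of 20.4. The β-Mfn1KO libraries held at most 5 counts of Mrc1. The Ctrl values began at 5.81, so the groups overlapped. The median log2 fold change of the 26 was -0.44, beside 0.00 for all genes, and without Ctrl 6 and β-Mfn2KO 5 it was 0.01. In β-Mfn2KO against Ctrl none was called by either tool (0.0524% in edgeR) and none passed an unadjusted p of 0.05 in either (4.22% of all genes in edgeR). There the median was 0.27, with 21 of 26 positive, and without the 2 libraries it was 0.00.

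Between β-Mfn1/2DKO and β-Mfn2KO, which differ in Mfn1, 1 macrophage gene was called, beside 3.84% of all genes and 1.79% lower. C1qa was at 1563, 1461, 1510.2, 1312 and 2460.1 in β-Mfn2KO, above all 5 double knockout libraries (927 to 1288). This was a difference of -0.60 on the log2 scale (SE 0.18, edgeR adjusted p = 0.0299), and groups that do not overlap were found for 11.8% of all genes. The call was lost without β-Mfn2KO 5 (-0.39, adjusted p = 0.142) and without each of β-Mfn1/2DKO 1, 3, 4 and 5 (adjusted p from 0.0542 to 0.0895). It was lost too under total-count scaling (-0.50, adjusted p = 0.0885) and with the replicate number as a block, where the adjusted p was 0.0173 but the difference of -0.58 stayed under the fold threshold. Without Ctrl 6, which took no part in this difference but in the estimate of the spread, Itgam and Fcgr3 were called lower too. In β-Mfn2KO 5 these 2 genes were at 555 and 475.5, against 18.2 to 37.7 and 36.4 to 59.2 in the other 4 β-Mfn2KO libraries. In β-Mfn1/2DKO they were at 22.9 to 39.2 and 33.9 to 62.7, so both calls rest on β-Mfn2KO 5.

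Between β-Mfn1/2DKO and β-Mfn1KO no macrophage gene was called by edgeR, beside 6.71% of all genes, with 3 at an unadjusted p under 0.05 (27.7% of all genes). Cd14 had the smallest p of the 26. It was at 36.3, 60.5, 54.6 and 74.8 in β-Mfn1KO and at 81.5, 93.6, 76.6, 279.8 and 352 in β-Mfn1/2DKO, so that the groups did not overlap (18.2% of all genes). The difference was 1.64 (SE 0.57, adjusted p = 0.052 in edgeR), DESeq2 called it (adjusted p = 0.0141, beside 10.9% of the genes with an adjusted p), and libraries 4 and 5, which are also the acinar-rich ones, were far above the other 3. In Ctrl it ran from 54.7 to 243, and the difference of β-Mfn1/2DKO from Ctrl was 0.55 (SE 0.47, edgeR adjusted p = 0.505). The test of whether the effect of losing Mfn1 differed with Mfn2 called none of the 26 by either tool (2.74% of all genes in edgeR), with 1 at an unadjusted p under 0.05 in each (18.5% in edgeR).

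The sexes were compared too, and the 3 libraries that stand apart were all male. With genotype in the model no macrophage gene was called by edgeR (0.0559% of all genes), and 9 passed an unadjusted p of 0.05, beside 10.6% of all genes. In DESeq2, which gave no p for Cd52 or Ccr2, there were 11, beside 9.73% of the genes with a p. Of the 26, 4 had a positive difference of females from males, beside 13433 of all 28632 genes, and the median was -0.59, beside -0.01 for all genes. DESeq2 called Lyz2, at -2.44 (adjusted p = 0.0326, beside 0.313% of the genes with an adjusted p), for which edgeR gave -2.39 (adjusted p = 0.247). Without the 3 libraries the median was -0.01, with no call and 4 genes at an unadjusted p under 0.05 in edgeR (7.53% of all genes).

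The lymphocyte genes were read apart. Cd3e was at 0 in 6 of 6 Ctrl libraries, at 2.79, 0, 0 and 0 in β-Mfn1KO and at 0, 0, 0, 0 and 5.94 in β-Mfn2KO. It was at 0.922, 5.53, 0.706, 20.4 and 1.87 in β-Mfn1/2DKO. Each double knockout library thus held Cd3e reads and no Ctrl library did, in libraries of very unequal depth. Groups that did not overlap were found for 10.6% of all genes in this comparison. Against a floor of 3 counts over the Ctrl group (1.43), Cd3e was at least 14.2-fold higher in β-Mfn1/2DKO 4 (52 counts), at least 3.86-fold higher in β-Mfn1/2DKO 2 (12 counts) and at least 4.15-fold higher in β-Mfn2KO 5 (9 counts). The other 3 double knockout libraries were near or under the floor.

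None of the 4 lymphocyte genes was called in β-Mfn1/2DKO against Ctrl by edgeR (5.21% of all genes) or DESeq2. In edgeR 2 of 4 passed an unadjusted p of 0.05, beside 27.8% of all genes, Cd3e (adjusted p = 0.0803) and Cd3g (adjusted p = 0.159). None did in DESeq2, which gave an adjusted p for Cd79a only and, in any comparison, no p for Ms4a1. Cd3g was at 0 to 3.11 in Ctrl, against 0, 12.9, 1.41, 27.0 and 3.12 in β-Mfn1/2DKO. No lymphocyte gene was called in any other comparison by edgeR or DESeq2 (0.0244% to 6.71% of all genes in edgeR). At an unadjusted p under 0.05 there were none of 4 in the other comparisons of genotypes by either tool (4.22% to 27.7% of all genes in edgeR). In females against males 2 passed it in edgeR (10.6% of all genes), Cd79a and Ms4a1, both lower in females. In DESeq2 1 did, Cd79a (9.73% of the genes with a p). The highest Ms4a1 values were in the libraries that stand apart, all of them male.

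Ms4a1 was at 0 to 15.6 in Ctrl (median 1.06) with the highest value in Ctrl 6, at 11.2, 0, 0 and 0 in β-Mfn1KO and at 0, 0, 2.69, 0 and 26.4 in β-Mfn2KO. In β-Mfn1/2DKO it was at 0.615, 4.15, 0, 121 and 3.12, so that 1 library (308 counts) set the group apart. Its log2 fold change against Ctrl was 2.90 (SE 1.5, edgeR adjusted p = 0.22) and turned to -0.82 without β-Mfn1/2DKO 4. Cd79a behaved otherwise. It was at 70.4 to 254 in all 20 libraries, including those with no read of Cd3e, Cd3g or Ms4a1, and its difference between β-Mfn1/2DKO and Ctrl was -0.12 (SE 0.32). The highest Cd79a values were 254 in β-Mfn1/2DKO 4 and 236 in Ctrl 5, which had no read of the other 3 genes.

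**Figure D5:**
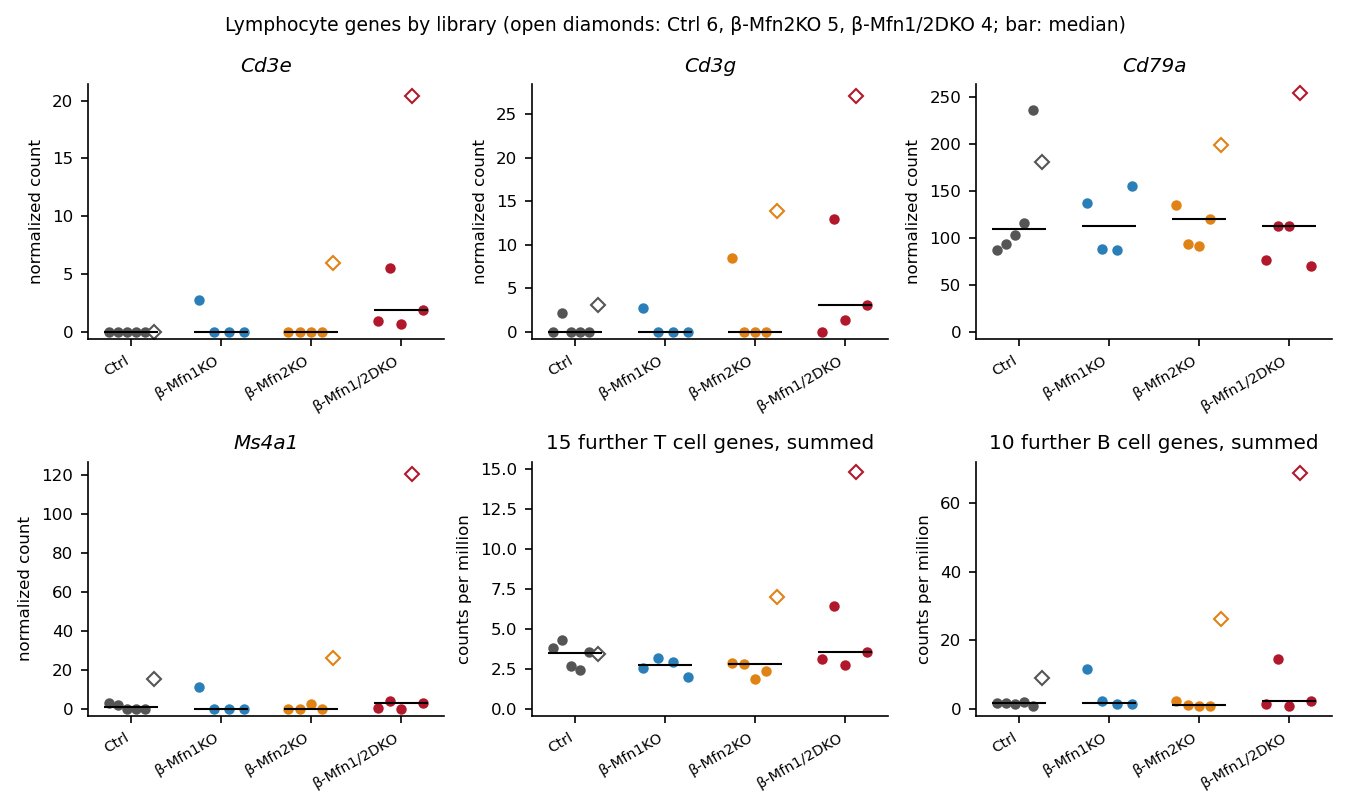
Each point is a library, as normalized counts for the 4 lymphocyte genes and as summed CPM for 15 further T cell and 10 further B cell genes, with the median of each genotype as a bar and the 3 libraries that stand apart as open diamonds. β-Mfn1/2DKO 4 is the highest point in every panel, and Cd79a is well above 0 in every library.

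Further lymphocyte genes followed the same libraries. Ighm, the heavy chain of immunoglobulin M, was at 11.7 to 103 in Ctrl, against 28.6, 209, 13.8, 1427 and 31.2 in β-Mfn1/2DKO. It was 1 of 10 further B cell genes called higher in β-Mfn1/2DKO against Ctrl (5.21% of all genes either way), by 3.21 (SE 1.03, edgeR adjusted p = 0.0343). Without β-Mfn1/2DKO 4 the difference was 0.95 (adjusted p = 0.536). The 10 B cell genes summed to 68.7 CPM in that library, 26.2 in β-Mfn2KO 5, 14.5 in β-Mfn1/2DKO 2, 11.8 in β-Mfn1KO 1 and 9.10 in Ctrl 6, against at most 2.25 in the other 15 libraries. Of 15 further T cell genes none was called by edgeR, with 7 at an unadjusted p under 0.05 (27.8% of all genes), and 1 by DESeq2. Lck, a kinase of T cell receptor signalling, was at 36.5 to 84.3 in Ctrl, against 77.8, 104, 75.1, 162 and 85.4 in β-Mfn1/2DKO (0.72, SE 0.26, edgeR adjusted p = 0.0682).

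Genes of lymph node stroma were measured beside the lymphocyte genes. Glycam1, which marks the vessels through which lymphocytes enter lymph nodes, was at 1570.5 in β-Mfn1/2DKO 2, 43.6 in β-Mfn2KO 5 and at most 6.08 in any other library. It was 1 of 5 such genes called in β-Mfn1/2DKO against Ctrl (6.98, SE 2.08, edgeR adjusted p = 0.0224), beside 5.21% of all genes, by edgeR and not by DESeq2. Without β-Mfn1/2DKO 2 the difference was -2.28 (adjusted p = 0.306). The 5 genes summed to 51.6 CPM in that library and to 0.497 to 2.41 in the other 4 of the genotype. In β-Mfn1/2DKO 4, where the lymphocyte genes were highest, the sum was 2.41. The part of lymph node tissue in the lymphocyte values was not tested.

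Of the genes around the macrophages, the ligands came first. Of 8 macrophage growth factors and recruiting ligands edgeR called 1 higher in β-Mfn1/2DKO against Ctrl and none lower (5.21% of all genes either way). DESeq2 called 2 higher and 1 lower. The gene that edgeR called was Cx3cl1, fractalkine, the ligand of Cx3cr1. It was at 337 to 582 in Ctrl (median 396), against 894.5, 1057, 913, 809 and 945 in β-Mfn1/2DKO, with no overlap (10.6% of all genes). The difference was 1.06 on the log2 scale (SE 0.13, edgeR adjusted p = 5.93e-06), and 1.1 without the 3 libraries that stand apart. The receptor Cx3cr1, as given above, did not pass the test. Csf1, which maintains macrophages through Csf1r, was at 812 to 1192 in Ctrl and at 845, 891, 771, 847 and 663 (-0.21, SE 0.13, edgeR adjusted p = 0.340).

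In β-Mfn1/2DKO against Ctrl edgeR called 928 of all 28632 genes higher and 563 lower, and 27.8% passed an unadjusted p of 0.05. Of 33 further macrophage genes measured, edgeR called none higher and 2 lower, and DESeq2 none higher and 1 lower. At an unadjusted p under 0.05 there were 3 in edgeR and 2 in DESeq2. Apoe, the highest of the 33, had -0.47 (SE 0.48, edgeR adjusted p = 0.597), and 0.16 without Ctrl 6 and β-Mfn2KO 5. Of 8 neutrophil and monocyte genes 3 were called lower by edgeR and 2 by DESeq2. Of the 8, 4 had a positive fold change and 2 passed the filter for low counts. Among those that edgeR called, S100a9 was at 0 to 65.4 in Ctrl, against 0 to 1.18 in β-Mfn1/2DKO (-4.23, SE 1.3, edgeR adjusted p = 0.0270). This became -2.10 (adjusted p = 0.195) without Ctrl 6 and β-Mfn2KO 5. In β-Mfn1KO it was at 50.2, 57.7, 9.93 and 30.5, above every Ctrl library but Ctrl 6.

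In β-Mfn1/2DKO against Ctrl edgeR called 5.21% of all genes, with 16.5% under the adjusted p and 27.8% at an unadjusted p under 0.05. Groups that did not overlap were found for 10.6%. Of 7 MHC class I genes, which nearly all cells carry, all 7 were positive, beside 15893 of all 28632 genes. The adjusted p was passed by 3 of them, none with a fold over 1.5. H2-K1 was at 31168 to 37029 in Ctrl (median 32442), against 42167, 44784, 44954, 45827 and 38431 in β-Mfn1/2DKO, a difference of 0.38 (SE 0.08, edgeR adjusted p = 0.00297) without overlap. Of 7 further MHC class II genes measured, none was called by edgeR or DESeq2, with 2 and 0 at an unadjusted p under 0.05. H2-DMa, which loads peptide onto class II proteins, had -0.14 in log2 fold change. Of 10 dendritic cell genes both tools called 1. In edgeR it was Zbtb46, a transcription factor of classical dendritic cells that endothelium also carries. It was at 23.3 to 59.2 in Ctrl, against 65.5, 62.7, 51.5, 107 and 131 in β-Mfn1/2DKO (0.98, SE 0.32, edgeR adjusted p = 0.0392), and without the 3 libraries it was 0.92 (adjusted p = 0.0876). All 8 endothelial genes passed the adjusted p as higher in the same comparison, beside 16.5% of all genes either way. Their part in the Zbtb46 values was not tested. Irf8, needed by dendritic cells and monocytes, had 0.40 (SE 0.18, edgeR adjusted p = 0.155). Of 20 inflammatory cytokine and chemokine genes none was called by edgeR (4 at an unadjusted p under 0.05) and 1 by DESeq2. Cxcl16, the highest of them, was at 358 to 856 in Ctrl, against 621, 657, 615, 941 and 1036.7 in β-Mfn1/2DKO (0.42, edgeR adjusted p = 0.132). Of 8 natural killer and innate lymphoid genes and 2 mast cell genes none was called by either tool, with 1 natural killer gene at an unadjusted p under 0.05 in edgeR and none of either list in DESeq2.

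Genes of the surrounding cells were read in the same comparison. Of 9 β-cell genes 7 were called lower in β-Mfn1/2DKO against Ctrl, beside 563 of all 28632 genes. The β-cell sum was 78823 ± 9190.0 CPM in the double knockout (SD, n = 5) against 179940 ± 32794 in control islets (SD, n = 6). Of 10 acinar genes 9 were called higher, and of 8 stellate cell and pericyte genes 1, beside 928 of all 28632 genes. The acinar sums of β-Mfn1/2DKO libraries ran from 431 to 40571 CPM with a median of 711. That median lay within the Ctrl range of 280 to 1770, and the high values were those of the acinar-rich libraries given above. The part of the surrounding cells in the values of the macrophage genes was not tested.

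Some counts of the members are uncertain for reasons of sequence. Of the 75-base stretches of Itgam, 65.2% also occur in the overlapping gene model Gm49368, which held 0.537% as many counts. The gene Hmgxb3 overlaps 873 exon bases of Csf1r on the opposite strand and held 572% as many counts, and Crybg2 overlaps 172 bases of Cd52 and held 86.7%. Whether the counting used strand is not given in the sources used here, so reads of these pairs cannot be told apart. Lyz2 shares 5.96% of its stretches with Lyz1, Fcgr3 5.42% with Fcgr2b and Itgax 5.01% with Itgad.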

How the data were processed

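RNA was sequenced from 20 islet libraries, and genotype, sex and replicate number were taken from the labels. Per the labels and methods, the authors trimmed reads with cutadapt 2.3, checked them with FastQC 0.11.8, aligned them to GRCm38 with STAR 2.6.1b and estimated gene counts with RSEM 1.3.1. The authors deposited these estimated counts as whole numbers, without genes at 0 in every sample, so no rounding was needed. A second deposited table, scaled with DESeq2, was not used. No sample column was left unused.

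The tests of 28632 genes used edgeR 4.0.16 under R 4.3.3. Scaling by TMM, estimateDisp, glmQLFit and glmQLFTest were run in 1 fit of all libraries with 1 coefficient per genotype (sex added for the sex contrast), and p-values were adjusted by the Benjamini-Hochberg method over all genes of a contrast. A call needs an adjusted p under 0.05 and a fold over 1.5. Standard errors are the log2 fold change over the root of F. Log2 fold changes and normalized counts are computed here. Tables were handled in Python 3.11.15 with pandas 2.3.3 and NumPy 2.4.6, and figures drawn with Matplotlib 3.10.9. Precision at these depths is limited by counting for genes under about 10 counts a library, and a floor of 3 counts was used for genes at 0, which covers counting error only. No pair of libraries of a genotype agreed within counting noise (chi-square per degree of freedom at least 6.31). The test was tested on simulated data.

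Members, gene lists and motif letters were chosen with earlier results of these data known. Named beside the 30 members were, of each further list, the gene of highest mean and up to 3 called genes of β-Mfn1/2DKO against Ctrl whose mean reached 10 normalized counts, and the 10 genes most like the macrophage genes; others are said to be chosen after their values were seen. List symbols were matched by name in a GRCm38 annotation (71 genes had none), and promoters are RefSeq's for GRCm38.p6 (20 of the 30 members matched). Same-numbered libraries were not treated as pairs, since 16 of 27 pairs of different genotypes, not all, correlated over 0.1 in their deviations from group means (mean r 0.120, against -0.03 for other pairs). Alternatives were DESeq2 1.42.0, other scalings, filterByExpr, 2 groups only, covariates, random thinning of all libraries to the smallest total (seed 20), a covariate for libraries above 40000000 counts, and libraries left out. Leaving out Ctrl 6 with β-Mfn2KO 5, and these with β-Mfn1/2DKO 4, was chosen after seeing the data. A gene that the rule for likeness would name is not reported here.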

Additional observations from a re-analysis of the deposited data

Results flagged for a closer look

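Values of each of the 30 genes were compared within each genotype. In 50 of 120 groups the highest library stood farther from the rest than Dixon's 95% limit allows. Ctrl 6 held 18 of these, β-Mfn2KO 5 held 20, β-Mfn1/2DKO 4 held 8 and β-Mfn1KO libraries the other 4. The limit is passed in about 1 in 20 groups of independent, normally distributed values. These genes rose together in the same libraries, so the groups are not independent and their count was not tested against chance. All values are normalized counts.

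In Ctrl 6 the pan-leukocyte genes were Ptprc (268), Cd52 (149) and Laptm5 (865). Its surface receptors were Csf1r (1227), Adgre1 (398), Cd68 (713), Ccr2 (152.5), Mrc1 (464) and Itgam (417). The other genes of this library were C1qb (1930.1), C1qc (1002), Tyrobp (476), Fcer1g (417), Fcgr3 (464), Spi1 (224), Lyz2 (18202), Cybb (346) and Ms4a1 (15.6).

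In β-Mfn2KO 5 the pan-leukocyte genes were Ptprc (359.9), Cd52 (207) and Laptm5 (1605). Its surface receptors were Csf1r (1201), Cd68 (975), Ccr2 (77.9), Cd14 (277), Mrc1 (514) and Itgam (555). Its complement genes were C1qa (2460.1), C1qb (2514) and C1qc (1362). The other genes of this library were Tyrobp (567), Fcer1g (567), Fcgr3 (475.5), Spi1 (432), Lyz2 (26334), Cybb (539.6), Cd3e (5.94) and Ms4a1 (26.4). Of the 18 genes that stood out in Ctrl 6, Adgre1 was the 1 that did not in β-Mfn2KO 5.

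In β-Mfn1/2DKO 4 the genes were Cd52 (124), Laptm5 (506), Cd68 (404), Lyz2 (4249.9), Cybb (174), Cd3e (20.4), Cd79a (254) and Ms4a1 (121). In β-Mfn1KO 1 they were Cd3e (2.79), Cd3g (2.79) and Ms4a1 (11.2), where the other 3 libraries were at 0, and in β-Mfn1KO 4 Aif1 (116).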

How the results depend on the processing

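Changes below are log2 fold changes of β-Mfn1/2DKO minus Ctrl, and counts are of the 26 macrophage genes unless said otherwise. Leaving out 1 library at a time turned the sign of 14 of the 26 macrophage and 2 of the 4 lymphocyte genes in at least 1 of the 20 cases. Their ranges were Cd52 -0.48 to 0.77, Laptm5 -0.46 to 0.32, Csf1r -0.69 to 0.18, Adgre1 -0.55 to 0.13, Ccr2 -2.12 to 1.13, Mrc1 -2.21 to 0.31, Itgam -1.86 to 0.022, C1qb -0.47 to 0.19, C1qc -0.34 to 0.26, Fcer1g -0.71 to 0.019, Spi1 -0.087 to 0.33, Lyz2 -2.21 to 0.90, Cybb -0.51 to 0.16, Aif1 -0.057 to 0.090, Cd79a -0.52 to 0.12 and Ms4a1 -0.82 to 4.39. All of these genes but Aif1 and Cd79a had their highest value without Ctrl 6. The lowest values of Cd52, Spi1 and Ms4a1 came without β-Mfn1/2DKO 4. Without Ctrl 6 and β-Mfn2KO 5 signs turned for Laptm5 (0.32), Csf1r (0.18), Adgre1 (0.13), Ccr2 (1.13), Mrc1 (0.31), Itgam (0.020), C1qb (0.19), C1qc (0.26), Fcer1g (0.020), Lyz2 (0.89) and Cybb (0.16). Without β-Mfn1/2DKO 4 as well they turned for Laptm5 (0.058), Csf1r (0.11), Adgre1 (0.21), Ccr2 (1.16), Mrc1 (0.13), C1qb (0.23), C1qc (0.32) and Lyz2 (0.0036). With the replicate number as a block, for numbers that did not meet the rule for pairs, they turned for Laptm5 (0.37), Csf1r (0.26), Adgre1 (0.16), Ccr2 (1.3), Mrc1 (0.79), Itgam (0.18), C1qb (0.26), C1qc (0.34), Fcer1g (0.13), Fcgr3 (0.13), Lyz2 (0.92) and Cybb (0.24). Number 6 occurs in Ctrl only, so the block fit gave Ctrl 6 no weight in this difference. Depth class as a covariate rests on the 2 deep β-Mfn2KO libraries, 4 and 5, of which β-Mfn2KO 5 stands apart. In that fit the high genes of β-Mfn2KO 5 and depth cannot be told apart. With this covariate signs turned for Ptprc (-0.36), Cd52 (-2.24), Cx3cr1 (0.61), Cd14 (-0.91), Spi1 (-1.37) and Ms4a1 (-0.89). Without the 2 acinar-rich double knockout libraries they turned for Cd52 (-0.39), Cd14 (-0.49) and Ms4a1 (-1.11), and under total-count scaling for Cd79a (0.031). That scaling moved the median of genes passing the filter from 0.04 to 0.17 and the higher calls from 928 of 1491 to 1550 of 1947. The count of macrophage genes called in β-Mfn1/2DKO against Ctrl, 0 as reported, was 2 by the adjusted p alone, 1 with counts drawn down to the smallest total, 2 with depth class, 1 without Ctrl 6 and β-Mfn2KO 5, and 0 to 1 with 1 library left out. Against β-Mfn2KO, 1 as reported, it was 0 under total-count scaling, the replicate block and each joint removal of libraries, 5 with depth class, and 0 to 3 with 1 library left out. Against β-Mfn1KO, 0 as reported, it was 1 (Cd14) with DESeq2, total-count scaling, filterByExpr, only the 2 groups compared, and both removals of libraries that stand apart, and 0 to 1 with 1 library left out. It was 1 with DESeq2 for the sexes, and 0 to 1 with 1 library left out for the interaction of Mfn1 and Mfn2 and for the 4 lymphocyte genes against Ctrl (Cd3e without β-Mfn1/2DKO 3). The replicate block changed no other count of calls among the 30 genes. The cause of these changes was not tested. Depth limits Cd3e, Cd3g, Ms4a1 and Ccr2, which held few counts in the Ctrl libraries (Ccr2 in those other than Ctrl 6). It also limits Mrc1, which held 0 to 5 counts in the β-Mfn1KO libraries.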
